A study of Olea europaea with 12 samples.

Results

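Secoisolariciresinol dehydrogenase is an enzyme of the short-chain dehydrogenase family that oxidises the lignan secoisolariciresinol to matairesinol. Lignans arise when dirigent proteins guide the coupling of coniferyl alcohol, a lignin precursor, to pinoresinol, which pinoresinol-lariciresinol reductases then convert in steps to secoisolariciresinol. Olive oil is known for its pinoresinol and acetoxypinoresinol. The dehydrogenase family is broad, and relatives with other substrates are known from other plants, among them xanthoxin dehydrogenase of abscisic acid synthesis in Arabidopsis, momilactone A synthase in rice and the nepetalactol-related dehydrogenases of catmint.

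The genes described here are LOC111412681, LOC111412273 and LOC111412272, which are 3 of the 21 genes annotated as secoisolariciresinol dehydrogenase-like among the 51008 genes of the table. They were chosen by name with their levels across all the samples known. Their levels, and every change of theirs between ages, are therefore given as a description with no test. The samples were 12 RNA-seq libraries of fruit mesocarp, the oil-bearing flesh, of the olive cultivar Koroneiki from a field in Western Greece. Fruits alike in colour, size and shape were picked at 4 ages, which are given in weeks after flowering (WAF) and were 17, 21, 26 and 30 WAF. In the order of age the library names begin with Sep, Oct, Nov and Dec, so fruit age and season cannot be told apart. Each age had 3 libraries, lettered A, B and C. The labels do not say that the 3 came from separate trees, so the spread between them may be technical in part.

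Values are FPKM, which scale fragments by the length of the transcript and the size of the library, and errors are SD over the 3 libraries of an age (n = 3). Per library they added up to 790578 to 845585, and the number of reads behind them is unknown. Genes with a value above 0 numbered 38351 to 39524 in 11 libraries and 36754 in library C of 30 WAF. Of the 41 genes of a list for secondary walls, typical of the stony endocarp and of vessels, 38 stayed under 1 FPKM in every library. These included every gene for cellulose synthase A subunits 4, 7 and 8 and for the wall regulators NAC43, MYB46 and MYB83. Of the 41, 5 were listed at 0 throughout. Means of the 3 that passed 1 FPKM follow in the order of age. A laccase-4-like gene (LOC111404394) was at 11.1, 13.3, 9.66 and 8.53 FPKM and a laccase-17-like gene (LOC111399734) at 4.30, 5.40, 3.06 and 4.08. A gene for the wall regulator NAC73 (LOC111381488) was at 0.67, 0.87, 4.01 and 1.83 FPKM. The list summed to 16.5 to 19.3 FPKM in the libraries of 17 WAF and 22.1 to 22.4 in those of 21 WAF. Its sum was 19.3 to 21.5 in those of 26 WAF and 16.5 to 19.3 in those of 30 WAF. Of 22 genes matched by a list of seed storage proteins, 15 stayed under 1 FPKM, an 11S globulin gene among them, and 4 were listed at 0. Others were expressed. In the order of age the vicilin-like gene LOC111393661 had means of 132.7, 99.7, 84.7 and 64.7 FPKM. The 2S storage protein gene LOC111397324 had 32.8, 11.6, 17.4 and 6.97, and the basic 7S globulin gene LOC111382978 had 15.0, 17.1, 14.9 and 25.6. The 22 genes summed to 188 to 192 FPKM in the libraries of 17 WAF and 136 to 140.0 in those of 21 WAF. Their sum was 124 to 125 in those of 26 WAF and 107 to 112 in those of 30 WAF. The part of either tissue in the results below was not tested.

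The annotation of the 3 genes is not uniform. All the genes carry a "-like" description, so the name does not establish a substrate. For LOC111412272 and LOC111412273 the closest proteins in the authors' deposited annotation are secoisolariciresinol dehydrogenases of walnut and poplar, and their KEGG terms are momilactone A synthase and xanthoxin dehydrogenase. For LOC111412681 the closest protein is a momilactone A synthase-like protein of sweet orange, and its one KEGG term is xanthoxin dehydrogenase. LOC111412681 also differs in its gene model, which spans 417 bases in the RefSeq gene table of the assembly O_europaea_v1. LOC111412273 spans 1229 bases there and LOC111412272 spans 16860. The authors' table adds 3 transcripts of their own assembly to the RefSeq one of LOC111412272 and 2 to that of LOC111412273, and none to LOC111412681.

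All the genes went from a low level at 17 and 21 WAF to a high one at 26 and 30 WAF, and the step fell between 21 and 26 WAF. In bulk tissue, more cells that use a gene and more RNA per cell cannot be told apart. LOC111412272, the most abundant of the 3, was at 38.55, 38.99 and 38.94 FPKM in libraries A, B and C at 17 WAF and at 47.71, 46.88 and 46.49 at 21 WAF. It was at 557.17, 525.96 and 553.48 FPKM at 26 WAF and at 658.25, 631.06 and 631.74 at 30 WAF. The libraries of each age lay apart from those of every other age, in the order 17, 21, 26 and 30 WAF. In the order of age the means were 38.8 ± 0.241, 47.0 ± 0.623, 545.5 ± 17.1 and 640.4 ± 15.5 FPKM.

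LOC111412273 was at 25.15, 25.32 and 24.92 FPKM in libraries A, B and C at 17 WAF and at 23.95, 21.02 and 21.43 at 21 WAF. It was at 344.44, 324.83 and 355.36 FPKM at 26 WAF and at 507.54, 511.44 and 512.95 at 30 WAF. Here too the ages did not overlap, but the lowest was 21 WAF and not 17 WAF. The means were 25.1 ± 0.201, 22.1 ± 1.59, 341.5 ± 15.5 and 510.6 ± 2.79 FPKM in the order of age.

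LOC111412681 was far lower. It was at 0.63, 1.13 and 0.22 FPKM in libraries A, B and C at 17 WAF and at 0.70, 1.11 and 0.71 at 21 WAF, and the libraries of these ages overlapped. It was at 37.10, 23.18 and 33.04 FPKM at 26 WAF and at 42.33, 36.34 and 35.62 at 30 WAF, where the ages overlapped again, since library A at 26 WAF was above libraries B and C at 30 WAF. The means were 0.66 ± 0.456, 0.84 ± 0.234, 31.1 ± 7.16 and 38.1 ± 3.68 FPKM. The spread between libraries was wide in relation to the level, as library B at 26 WAF stood well below the other two of its age.

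**Figure D1:**
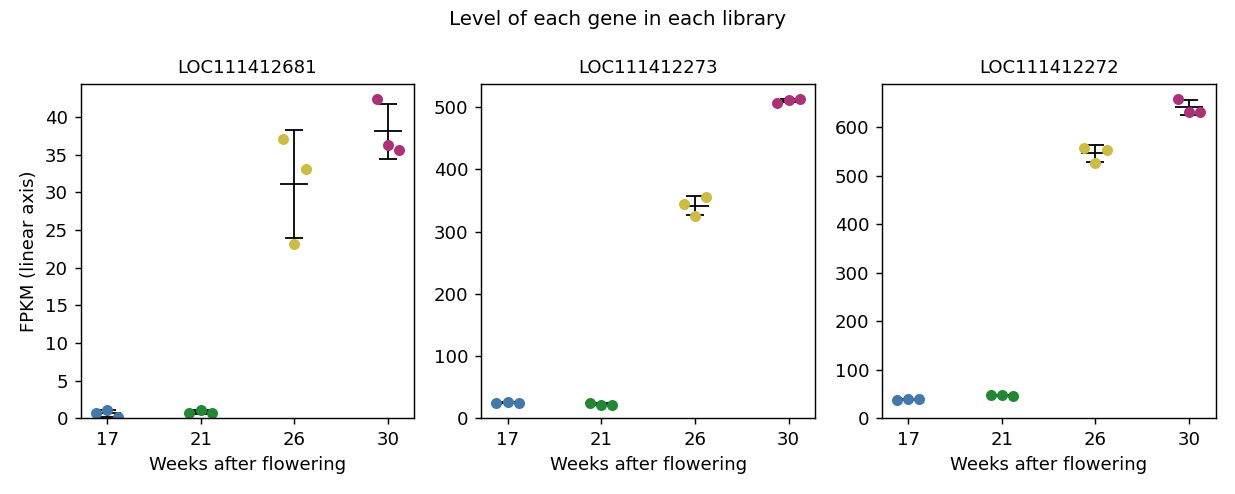
FPKM of each gene (vertical axis, linear, a scale of its own per panel) by weeks after flowering; points are the 3 libraries A, B and C from left to right, the long tick is their mean and the bars the SD. LOC111412272 stays under 48 FPKM at 17 and 21 WAF and is at 525.96 or more at 26 and 30 WAF, and the other panels show the same step at lower levels.

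Between 21 and 26 WAF the mean FPKM of LOC111412681 was 37.0-fold higher, that of LOC111412273 15.4-fold and that of LOC111412272 11.6-fold. On the scale of log2(FPKM + 1), which understates changes of low values, the differences were 4.11 for LOC111412681, with a combined SD of both ages of 0.385. They were 3.89 for LOC111412273 (SD 0.117) and 3.51 for LOC111412272 (SD 0.049). All 3 genes had no overlap between these ages with the older fruit higher, as had 25.8% of the 26131 genes that passed a filter on low values (at least 1 FPKM in at least 3 libraries). All 3 genes passed that filter, LOC111412681 only through its levels at 26 and 30 WAF. A log2 difference of at least 3 was reached by 22 genes, or 0.0842% of those tested, and the 3 genes took places 2, 3 and 5 among all of them. These genes were chosen for their levels, so nothing is read from these places.

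The smaller steps before and after differed from gene to gene. From 17 to 21 WAF the log2 difference was 0.27 (SD 0.021) for LOC111412272 and -0.18 (SD 0.098) for LOC111412273, in opposite directions and without overlap in either gene. Of all genes tested, 25.3% had no overlap with 21 WAF higher and 39.7% with 21 WAF lower. For LOC111412681 the difference was 0.18 with an SD of 0.44, which is within the spread, and it was -0.03 without library C at 17 WAF, 0.38 without library B at 17 WAF, 0.08 without library B at 21 WAF and 0.48 with a pseudocount of 0.1. From 26 to 30 WAF the log2 difference was 0.58 (SD 0.066) for LOC111412273, 0.23 (SD 0.057) for LOC111412272 and 0.31 (SD 0.367) for LOC111412681. The difference of LOC111412272 was 0.13 with median-of-ratios scaling, and that of LOC111412681 was 0.11 without library B at 26 WAF, 0.44 without library A at 26 WAF and 0.20 with median-of-ratios scaling. The first 2 genes showed no overlap, with 30 WAF higher, as did 43.4% of the genes tested, while LOC111412681 did not differ beyond its spread. Over the whole period, from 17 to 30 WAF, the log2 differences were 4.59 (SD 0.423) for LOC111412681, 4.29 (SD 0.014) for LOC111412273 and 4.01 (SD 0.036) for LOC111412272. All 3 again had no overlap, as had 35.5% of the genes tested with 30 WAF higher.

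The ratio of LOC111412272 to LOC111412273 therefore moved with age. The level of LOC111412272 was 1.55 ± 0.0156 times that of LOC111412273 at 17 WAF, 2.13 ± 0.124 times at 21 WAF, 1.60 ± 0.0352 times at 26 WAF and 1.25 ± 0.0371 times at 30 WAF. Both levels are per transcript length. By mean FPKM among all 51008 genes, LOC111412272 held places 3952, 3157, 127 and 115 in the order of age. LOC111412273 held places 6140, 6624, 233 and 150, and LOC111412681 places 26509, 25039, 4857 and 4127.

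The 3 genes are neighbours on one chromosome, a feature that the choice by name did not use. In the RefSeq gene order of O_europaea_v1, 10 of the 21 genes with this description form a run of 14 annotated genes. Only the order is used, because the sources used here do not name the build of the deposited values, and all 21 genes matched that table by gene ID and by transcript accession. The order of the dehydrogenase genes is LOC111412270, LOC111412271, LOC111412681, LOC111412272, LOC111412273, LOC111412275, LOC111412276, LOC111412278, LOC111412277 and LOC111412279. The 3 genes thus follow one another in the order of these genes, LOC111412681 directly beside LOC111412272. The other 4 annotations in the run are a long non-coding RNA, a pseudogene and 2 uncharacterized genes, and the latter never exceeded 0.28 FPKM in any library.

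The other 7 dehydrogenase genes of the run also rose from 21 to 26 WAF, each by less than the 3 genes, and each passed limma's moderated test with Benjamini-Hochberg adjustment over all genes tested. As the 3 genes were chosen with their levels known, nothing is read from their larger rises. LOC111412271, next to LOC111412681 in the order but for the non-coding RNA, went from 51.0 ± 1.55 to 280.6 ± 2.22 FPKM (log2 change 2.44, SE 0.03, limma adjusted p = 2e-14). With its 2.44 it stood next below LOC111412272 with 3.51. LOC111412275, on the other side of LOC111412273 and the most abundant gene of the run over all libraries, rose from 357 ± 4.59 to 1349 ± 24.3 FPKM (log2 change 1.91, SE 0.026, limma adjusted p = 2.7e-14). LOC111412278 rose from 84.2 ± 0.829 to 289.6 ± 12.9 FPKM (log2 change 1.77, limma adjusted p = 9.6e-12), and LOC111412277 from 378 ± 8.90 to 1054 ± 15.2 (log2 change 1.48, limma adjusted p = 3e-13).

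The genes at the ends of the run and LOC111412276 rose least. LOC111412270 went from 11.2 ± 0.645 to 26.0 ± 0.613 FPKM (log2 change 1.15, limma adjusted p = 1.3e-09). LOC111412276 went from 233 ± 6.62 to 442 ± 13.3 FPKM (log2 change 0.92, limma adjusted p = 1e-10), and LOC111412279 from 43.1 ± 2.34 to 74.0 ± 0.777 (log2 change 0.77, limma adjusted p = 5.5e-09). Outside the run, 2 further genes with the description passed the filter. LOC111403988 went from 7.89 ± 0.741 to 10.3 ± 0.452 FPKM (log2 change 0.35, limma adjusted p = 0.00055), and LOC111403525 fell from 15.9 ± 1.18 to 11.96 ± 0.485 (log2 change -0.38, limma adjusted p = 5.7e-05). Thus 8 of the 9 other tested genes with the description were higher at 26 WAF and 1 was lower, where 23.2% of all genes tested were called higher and 32.9% lower. Their median log2 change was 1.15, against -0.056 over all genes tested. The remaining 9 of the 21 genes lie elsewhere, did not pass the filter and never exceeded 0.44 FPKM, and 1 of them was listed at 0 in every library.

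**Figure D2:**
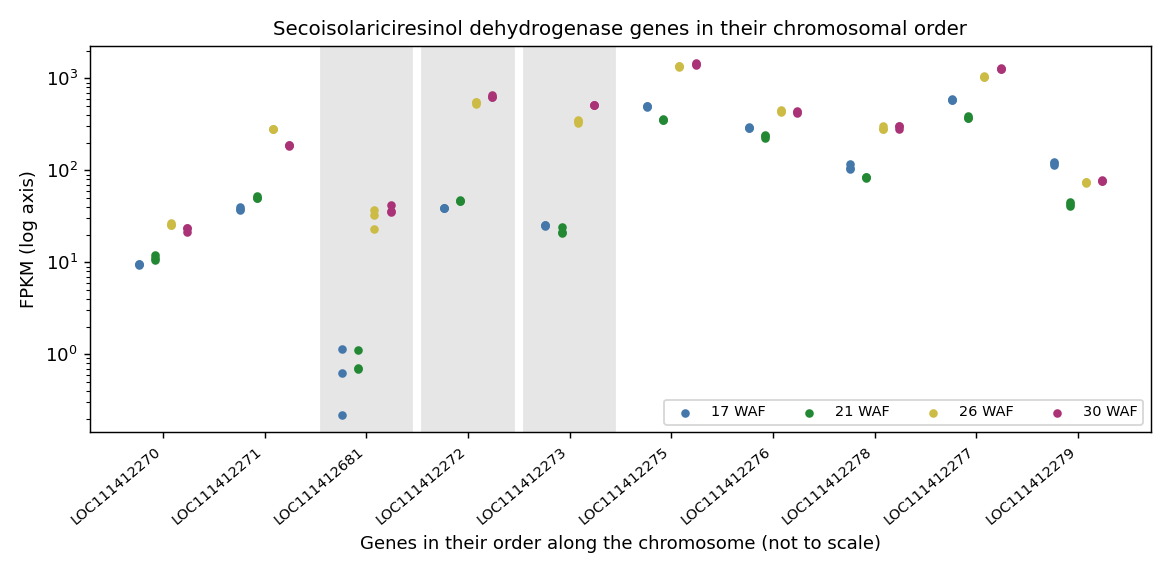
FPKM (log axis) of the 10 dehydrogenase genes of the run in their order along the chromosome, with 3 points per age, one per library; the grey bands mark LOC111412681, LOC111412272 and LOC111412273. In the banded genes the points of 26 and 30 WAF lie more than 10-fold above those of 17 and 21 WAF, while the genes to their right start from 83.28 FPKM or more, apart from LOC111412279 at 21 WAF, and show narrower gaps.

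The neighbours differed more in the other intervals. From 17 to 21 WAF 5 of the 7 fell, among them LOC111412279 from 119 ± 4.34 to 43.1 ± 2.34 FPKM (log2 change -1.45, limma adjusted p = 1.1e-11) and LOC111412277 from 586 ± 12.4 to 378 ± 8.90 (log2 change -0.63, limma adjusted p = 4.7e-10). LOC111412275, LOC111412278 and LOC111412276 fell by 0.47, 0.35 and 0.32 on the log2 scale. The first 2 genes of the run rose, LOC111412271 from 38.2 ± 1.26 to 51.0 ± 1.55 FPKM (log2 change 0.41, limma adjusted p = 1.3e-07) and LOC111412270 from 9.49 ± 0.201 to 11.2 ± 0.645 (log2 change 0.21, limma adjusted p = 0.0029). With the 2 genes outside the run, of which LOC111403525 rose and LOC111403988 fell, 3 of 9 were higher and 6 lower, against 22.2% and 35.9% of all genes tested.

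From 26 to 30 WAF LOC111412271 fell to 186.5 ± 1.51 FPKM (log2 change -0.59, limma adjusted p = 2.4e-09) and LOC111412270 to 22.9 ± 1.42 (log2 change -0.18, limma adjusted p = 0.0081). LOC111412277 rose to 1277 ± 9.25 FPKM (log2 change 0.28, limma adjusted p = 1e-06). LOC111412275 was at 1431 ± 20.0 FPKM at 30 WAF (log2 change 0.085, limma adjusted p = 0.011), a call that was lost with TPM scaling (limma adjusted p = 0.11) and with median-of-ratios scaling, where the change was -0.019 (limma adjusted p = 0.56). LOC111412276, LOC111412278 and LOC111412279, at 430 ± 9.69, 297 ± 10.6 and 77.6 ± 1.66 FPKM at 30 WAF, did not pass the test, but LOC111412276 was called lower with TPM scaling (log2 change -0.083, limma adjusted p = 0.037) and with median-of-ratios scaling (log2 change -0.143, limma adjusted p = 0.0012). Over the 9 genes 3 were higher, 3 lower and 3 did not pass, against 42.0% of all genes tested called higher and 24.3% lower.

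Between the ends of the period, 17 and 30 WAF, 6 of the 7 neighbours were higher, from a log2 change of 0.56 in LOC111412276 to 2.26 in LOC111412271, and LOC111412279 was lower (log2 change -0.61, limma adjusted p = 1.2e-08). Outside the run LOC111403525 rose from 8.56 ± 0.335 to 19.6 ± 0.456 FPKM (log2 change 1.11, limma adjusted p = 6.2e-10), and LOC111403988 fell from 27.2 ± 0.618 to 3.02 ± 0.241 (log2 change -2.81, limma adjusted p = 3e-13). In all 7 of the 9 were higher and 2 lower, against 34.9% and 38.9% of all genes tested. The comparisons share the libraries of 17, 21, 26 or 30 WAF and are not independent of each other.

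**Figure D3:**
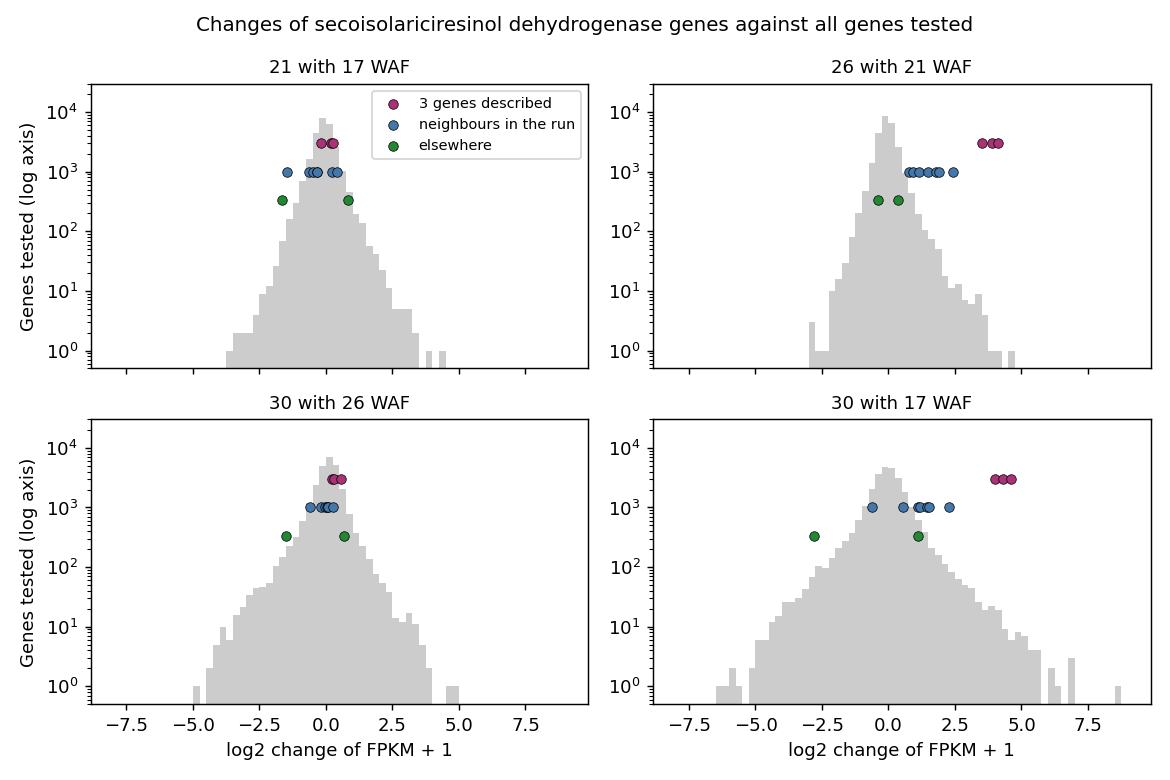
Number of genes tested (grey bars, log axis) by log2 change of FPKM + 1, in 4 panels for 4 comparisons of ages; points mark the 3 genes described, their 7 neighbours in the run and the 2 tested genes elsewhere, at arbitrary heights. In the comparison of 26 with 21 WAF the 3 genes lie at 3.51 to 4.11 and the neighbours at 0.77 to 2.44.

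The genes that flank the run differed in direction. The nearest tested gene before it, annotated as the cell cycle transcription factor E2FB (LOC111412269), went from 3.23 to 2.68 FPKM between 21 and 26 WAF (log2 change -0.20, limma adjusted p = 0.03). That call was lost with TPM scaling (limma adjusted p = 0.052), with median-of-ratios scaling (limma adjusted p = 0.078) and without library B or C of 21 WAF or A or B of 26 WAF. The nearest after it, annotated as GBF-interacting protein 1 (LOC111412280), was at 18.6 and 18.1 FPKM (log2 change -0.035, limma adjusted p = 0.48). Farther out, the NDR1/HIN1-like protein 1 gene LOC111412268 before the run rose from 21.0 to 26.0 FPKM (log2 change 0.295, limma adjusted p = 0.00069). After the run LOC111412282, annotated as a WSS1-like metalloprotease, fell from 42.9 to 39.2 FPKM (log2 change -0.126, limma adjusted p = 0.0054), a call that was lost with median-of-ratios scaling (limma adjusted p = 0.1). The next, LOC111412284 for 4-hydroxyphenylpyruvate dioxygenase, an enzyme of tyrosine breakdown and tocopherol synthesis, rose from 61.0 to 95.8 FPKM (log2 change 0.64, limma adjusted p = 2.6e-07). These genes were picked by position only, after the run had been seen.

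As FPKM are scaled for length, the levels of the run can be added. The 10 genes summed to 1713 ± 23.6 FPKM at 17 WAF and 1228 ± 4.49 at 21 WAF, and then to 4433 ± 88.3 at 26 WAF and 4910.3 ± 46.5 at 30 WAF. In the order of age that was 0.215%, 0.148%, 0.542% and 0.583% of the summed FPKM of a library. LOC111412681, LOC111412273 and LOC111412272 together supplied 3.77% ± 0.0278 of the run's sum at 17 WAF and 5.70% ± 0.162 at 21 WAF, and then 20.7% ± 0.599 at 26 WAF and 24.2% ± 0.106 at 30 WAF. In every library of 17 and 21 WAF the highest gene of the run was LOC111412277, and in every library of 26 and 30 WAF it was LOC111412275. By mean level 5 genes of the run lay above LOC111412272 at 17 and 21 WAF, and 2 did at 26 and 30 WAF.

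**Figure D4:**
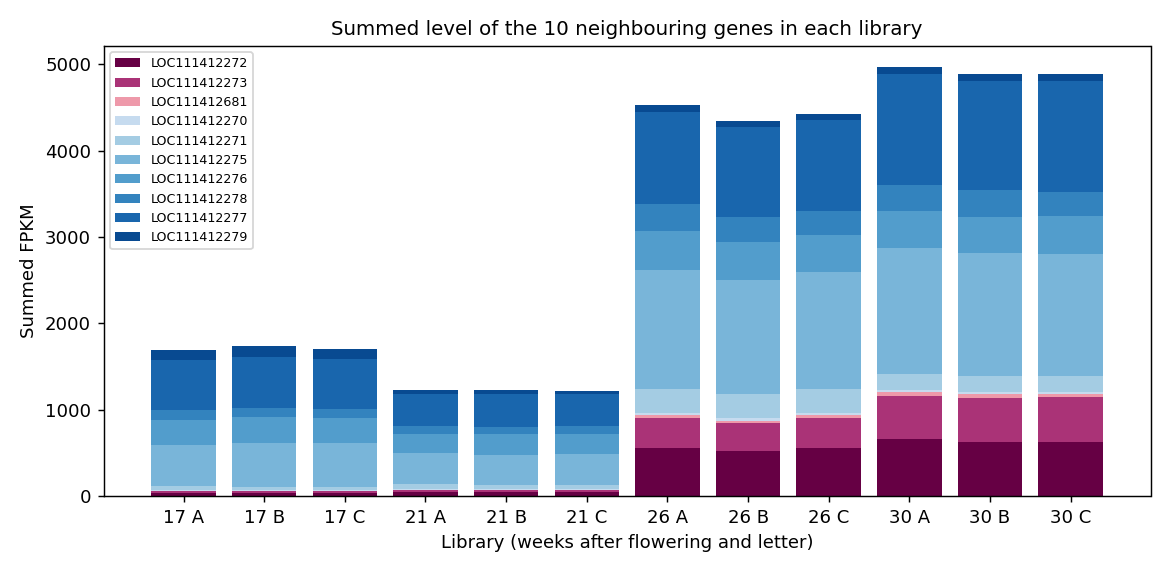
Summed FPKM (bars, from 0) of the 10 dehydrogenase genes of the run in each of the 12 libraries, split by gene, with the 3 genes described in red shades at the base. Bars at 26 and 30 WAF reach 4349 to 4964 FPKM against 1223 to 1738 at the younger ages, and the red base grows from 64.1 to 72.4 FPKM to 874 to 1208.

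Genes of a family in one run can be alike in sequence, and the estimation of values may divide reads that fit several of them. The level of each gene of the run is uncertain to that extent, most of all for the short LOC111412681 beside the far more abundant LOC111412272. How far this bears on the values was not tested. The ratio of LOC111412272 to LOC111412681 ranged from 34.5 to 177 among the libraries of 17 WAF and from 42.2 to 68.2 among those of 21 WAF. Among the libraries of 26 WAF it was 15.0 to 22.7 and among those of 30 WAF 15.6 to 17.7. The ratios at 17 and 21 WAF rest on levels of LOC111412681 between 0.22 and 1.13 FPKM and are imprecise.

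The genes closest in pattern were sought among all tested genes with a description, by the root mean square difference of log2(FPKM + 1) over the 12 libraries after each gene was centred on its own mean. Since the 3 genes described were chosen with their levels known, nothing is read from their closeness to one another. The closest to LOC111412681 were LOC111412273 (0.31) and LOC111412272 (0.37), followed by a polygalacturonase gene, LOC111395349, for an enzyme that breaks down pectin (0.48). That gene went from 1.16 ± 0.321 and 4.03 ± 0.442 FPKM at 17 and 21 WAF to 51.9 ± 2.25 and 67.8 ± 2.33 at 26 and 30 WAF. The closest to LOC111412273 were LOC111412272 (0.26), LOC111412681 (0.31) and LOC111370659, a gene for ACC oxidase, which releases ethylene from its precursor (0.34). The ACC oxidase gene was at 2.62 ± 0.272, 2.28 ± 0.446, 35.7 ± 1.32 and 99.7 ± 2.02 FPKM in the order of age.

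The closest to LOC111412272 was a gene annotated as the cysteine protease RD19B, LOC111394575 (0.19), at 0.303 ± 0.165, 0.637 ± 0.0723, 12.6 ± 0.597 and 17.7 ± 0.471 FPKM. LOC111412273 (0.26) and another polygalacturonase gene, LOC111396322 (0.27), came next, the latter at 0.413 ± 0.0153, 1.43 ± 0.161, 15.6 ± 0.436 and 22.5 ± 0.48 FPKM. The median difference to all tested genes was 2.23 for LOC111412681, 2.09 for LOC111412273 and 1.92 for LOC111412272. Of the other genes of the run, LOC111412271 was the nearest to each of the 3, at 1.08, 0.99 and 0.77 in the same order. On this scale a gene with low FPKM shows a smaller change than its ratio would give.

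The genes of the earlier steps of lignan synthesis were taken from lists built by description. Dirigent proteins, which guide the coupling to pinoresinol or other products, numbered 32 genes, of which 7 were tested. From 21 to 26 WAF 2 of the 7 rose and 5 fell, against 23.2% and 32.9% of all genes tested. Their median log2 change was -0.31, against -0.056 over all genes tested. One of them stepped up with the dehydrogenase genes. The dirigent protein 22 gene LOC111383984 was listed at 0, 0 and 0.03 FPKM in libraries A, B and C at 17 WAF and was at 1.15, 1.65 and 1.26 at 21 WAF. It reached 22.74, 24.93 and 27.47 FPKM at 26 WAF and 68.57, 70.53 and 73.03 at 30 WAF, so that each age lay above the one before. Its log2 change was 3.47 from 21 to 26 WAF (SE 0.08, limma adjusted p = 2.7e-12) and 1.47 from 26 to 30 WAF (SE 0.08, limma adjusted p = 4.2e-09).

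The most abundant dirigent gene, LOC111374881 of the same description, fell from 248.5 ± 11.1 FPKM at 17 WAF to 115 ± 6.09 at 21 WAF (log2 change -1.11, limma adjusted p = 2.6e-09) and to 80.4 ± 6.29 at 26 WAF (log2 change -0.51, limma adjusted p = 5.6e-06). It was at 86.4 ± 1.79 FPKM at 30 WAF. The dirigent protein 19 gene LOC111401156 fell from 78.5 ± 3.74 FPKM at 17 WAF to 29.9 ± 0.96 at 30 WAF (log2 change -1.36, limma adjusted p = 2e-12), and LOC111376314 of that description rose from 26.3 ± 1.89 to 46.7 ± 1.39 (log2 change 0.81, limma adjusted p = 5e-09). The largest fall was that of the dirigent protein 22 gene LOC111401164, from 26.9 ± 1.29 to 6.38 ± 0.68 FPKM (log2 change -1.92, limma adjusted p = 2.8e-10). Over these ends 3 of the 7 rose, 3 fell and 1 did not pass, against 34.9% of all genes tested that rose and 38.9% that fell. From 17 to 21 WAF 2 rose, 3 fell and 2 did not pass (22.2% and 35.9% of all genes rose and fell), and from 26 to 30 WAF 4 rose, 1 fell and 2 did not pass (42.0% and 24.3%).

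Pinoresinol-lariciresinol reductases supply the substrate of secoisolariciresinol dehydrogenase, and they share their family with phenylcoumaran and isoflavone reductases and eugenol synthase. Of 13 genes of this family 8 were tested. From 21 to 26 WAF 5 rose, 2 fell and 1 did not pass (median log2 change 0.18 against -0.056 over all genes tested), where 23.2% of all genes tested rose and 32.9% fell. From 26 to 30 WAF 7 rose, 0 fell and 1 did not pass (median 0.63 against 0.1), where 42.0% of all genes rose and 24.3% fell. From 17 to 21 WAF 3 rose and 4 fell, against 22.2% and 35.9% of all genes. From 17 to 30 WAF 6 rose and 2 fell (median 0.85 against -0.033), against 34.9% and 38.9%. The bifunctional pinoresinol-lariciresinol reductase gene LOC111408132 was at 0.06, 0.09 and 0.02 FPKM in libraries A, B and C at 17 WAF and at 0.58, 0.58 and 0.62 at 21 WAF. It was at 1.74, 2.24 and 2.01 FPKM at 26 WAF and at 8.42, 8.66 and 7.11 at 30 WAF. It thus rose at each age without overlap but stayed at a low level, with a log2 change of 3.10 over the whole period (SE 0.088, limma adjusted p = 2.4e-12).

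The probable pinoresinol-lariciresinol reductase 3 gene LOC111394588 was higher in level and changed little. It went from 25.7 ± 1.20 FPKM at 17 WAF to 19.5 ± 0.257 at 21 WAF (log2 change -0.38, limma adjusted p = 3.6e-06), 22.2 ± 0.232 at 26 WAF (log2 change 0.17, limma adjusted p = 0.0025) and 27.8 ± 1.12 at 30 WAF (log2 change 0.31, limma adjusted p = 1.7e-05). From 17 to 30 WAF it was called higher (log2 change 0.108, limma adjusted p = 0.027). That call was lost with TPM scaling (limma adjusted p = 0.46) and without library A or C of 17 WAF or C of 30 WAF. The most abundant gene of this family, the isoflavone reductase-like gene LOC111385164, whose substrate the name does not give, rose from 1535 ± 34.9 to 1756 ± 45.5 FPKM between 21 and 26 WAF (log2 change 0.19, limma adjusted p = 0.00013). It was the gene of the family that did not pass from 26 to 30 WAF, but it was called lower there with TPM scaling (log2 change -0.102, limma adjusted p = 0.0024), with median-of-ratios scaling (log2 change -0.162, limma adjusted p = 0.00081) and without library B of 26 WAF. Another of that description, LOC111408953, fell in the same interval from 256.5 ± 5.81 to 176 ± 5.99 FPKM (log2 change -0.54, limma adjusted p = 2.3e-08). Both had risen from 17 to 21 WAF, LOC111408953 from 99.2 ± 1.11 FPKM (log2 change 1.36, limma adjusted p = 3.8e-12).

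**Figure D5:**
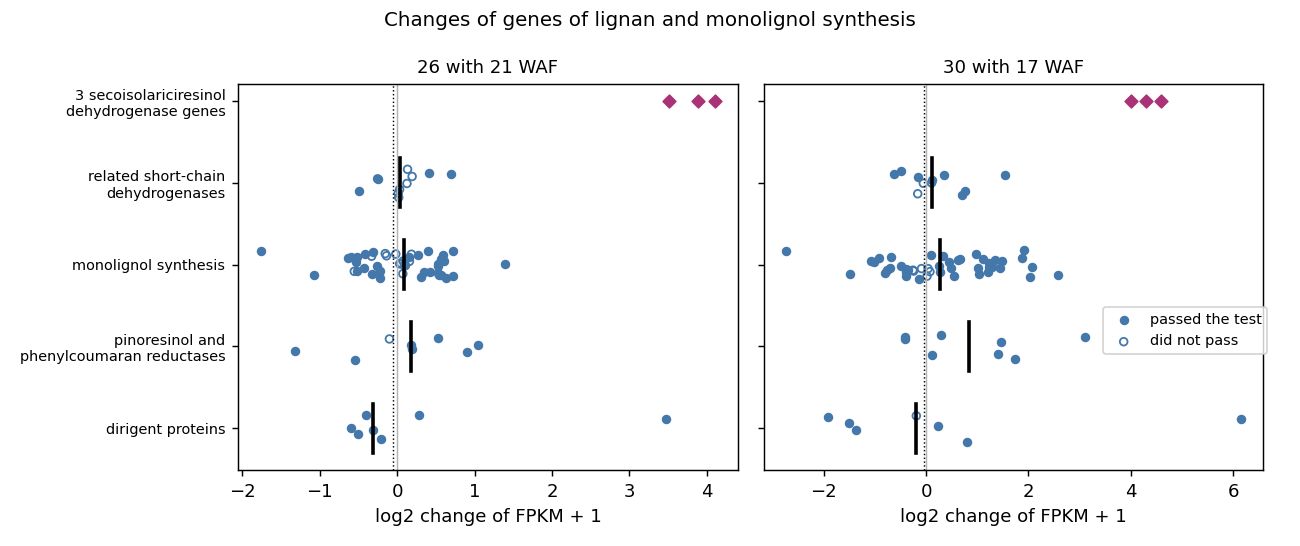
Log2 change of FPKM + 1 (horizontal axis) of each tested gene of 4 lists from 21 to 26 WAF (left) and from 17 to 30 WAF (right); filled points passed limma's test, open ones did not, black bars are list medians, the dotted line is the median of all genes tested and diamonds are the 3 dehydrogenase genes, which were not tested. From 21 to 26 WAF 1 dirigent gene, at 3.47, lies beside the diamonds at 3.51 to 4.11.

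The monolignol list holds enzymes between phenylalanine and the monolignols, among which coniferyl alcohol is the precursor of both lignin and lignans. Of its 46 tested genes 20 rose, 14 fell and 12 did not pass from 21 to 26 WAF, against 23.2% of all genes tested that rose and 32.9% that fell, and the median log2 change was 0.086 against -0.056. The largest rise in that interval was in the caffeic acid 3-O-methyltransferase gene LOC111397542, for a methylation step of the pathway, from 175 ± 7.28 to 460 ± 12.9 FPKM (log2 change 1.39, limma adjusted p = 3.4e-12). LOC111392506, annotated as cinnamoyl-CoA reductase 1-like, fell furthest between these ages, from 52.0 ± 0.867 to 14.7 ± 0.674 FPKM (log2 change -1.76, limma adjusted p = 6.9e-11). From 17 to 21 WAF 11 rose and 26 fell, when more of all genes tested fell (35.9%) than rose (22.2%). From 26 to 30 WAF 28 rose and 6 fell, when more of all genes tested rose (42.0%) than fell (24.3%), and from 17 to 30 WAF 25 rose and 15 fell, against 34.9% and 38.9%. The phenylalanine ammonia-lyase gene LOC111399604, for the entry step, fell from 8.07 ± 0.0666 FPKM at 17 WAF to 1.54 ± 0.0764 at 21 WAF (log2 change -1.835, limma adjusted p = 4.8e-12). It was at 3.21 ± 0.101 FPKM at 26 WAF and rose to 37.3 ± 0.848 at 30 WAF (log2 change 3.19, limma adjusted p = 8.6e-15). The largest fall from 26 to 30 WAF was in the cinnamoyl-CoA reductase 1-like gene LOC111380905, from 5.33 ± 2.19 to 0 FPKM (log2 change -2.60, limma adjusted p = 0.00044).

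The last list holds relatives in the short-chain dehydrogenase family with other names. Of its 11 tested genes 2 rose, 2 fell and 7 did not pass from 21 to 26 WAF, where 23.2% of all genes tested rose and 32.9% fell. The median log2 change of the list was 0.032, against -0.056 over all genes tested. The single gene annotated outright as xanthoxin dehydrogenase, LOC111410241, was at 18.4 ± 1.13 FPKM at 17 WAF and fell to 12.7 ± 0.412 at 21 WAF (log2 change -0.50, limma adjusted p = 7.3e-06). It was at 13.04 ± 1.08 FPKM at 26 WAF (limma adjusted p = 0.65 against 21 WAF) and at 12.9 ± 0.0656 at 30 WAF (limma adjusted p = 0.83 against 26 WAF). The most abundant of these genes, the tropinone reductase-like 3 gene LOC111407169, fell from 182 ± 6.25 FPKM at 17 WAF to 111 ± 4.84 at 21 WAF (log2 change -0.71, limma adjusted p = 3.7e-09). It rose to 148 ± 3.53 FPKM at 26 WAF (log2 change 0.41, limma adjusted p = 8.7e-07). The largest fall from 21 to 26 WAF was in the short-chain dehydrogenase reductase 3a-like gene LOC111405754, from 8.74 ± 0.521 to 5.95 ± 0.488 FPKM (log2 change -0.49, limma adjusted p = 4.8e-05). From 17 to 21 WAF 3 of the 11 rose and 5 fell, against 22.2% and 35.9% of all genes tested, and from 26 to 30 WAF 5 rose and 2 fell, against 42.0% and 24.3%. From 17 to 30 WAF 5 rose and 3 fell, against 34.9% and 38.9%. Among these calls the rise of LOC111407169 was lost with TPM scaling (limma adjusted p = 0.32) and without library A of 17 WAF. The fall of LOC111405754 was lost without the filter (limma adjusted p = 0.09), with median-of-ratios scaling (limma adjusted p = 0.097), with a pseudocount of 0.1 and without any of several libraries.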

How the data were processed

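RNA from olive mesocarp was sequenced on the DNBseq platform, per the labels' protocols. The authors deposited 1 FPKM value with 2 decimals for each gene in each library. The submitters' processing notes list Bowtie2 2.2.5, HISAT2 2.0.4, RSEM and StringTie 1.0.4 without saying what each did. Build, annotation and strandedness: not given in the sources used here. FPKM are not counts: ratios of low values between libraries showed no common step (11.2 to 18.6% within 0.1 of the most frequent log2 ratio), so depth is unknown and no counting interval is given.

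The 26131 genes that reached 1 FPKM in 3 or more libraries were analysed on the log2(FPKM + 1) scale in R 4.3.3 using limma 3.58.1, with a mean per age over all 12 libraries (8 residual degrees of freedom, variance trend). P-values are 2-sided and Benjamini-Hochberg adjusted over these genes, with a threshold of 0.05, and measure only the spread between these samples. The procedure was checked on simulated data. The genes described, the lists and the rules were chosen with earlier results of these data known. Genes named are those described, other genes of that description reaching a mean of 5 FPKM at some age, and, per list, the 3 most abundant and the largest called rise and fall per comparison, of which only part is printed. Per gene described, the 3 most alike in pattern are also named. Flanking genes lie outside this rule. No protein or promoter sequence was analysed here. As alternatives, each library was omitted in turn, the replicate letter entered as a block, TPM or median-of-ratios scaling was applied, the filter was dropped or raised to a mean of 5 FPKM, and the pseudocount was set to 0.1. Sums over genes were added after the data were seen. Python 3.11.15, pandas 2.3.3, numpy 2.4.6 and matplotlib 3.10.9 were used.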

Additional observations from a re-analysis of the deposited data

How the results depend on the processing

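With a pseudocount of 0.1 the log2 differences of LOC111412681 grew to 5.85 from 17 to 30 WAF and 5.05 from 21 to 26 WAF, and that of LOC111412273 from 17 to 30 WAF to 4.34. With TPM scaling LOC111412273 and LOC111412272 had 4.22 and 3.94 from 17 to 30 WAF, and LOC111412272 had 0.21 from 17 to 21 WAF. With median-of-ratios scaling LOC111412273 had 4.32 from 17 to 30 WAF and 0.48 from 26 to 30 WAF. Under that scaling LOC111412272 had 0.34 from 17 to 21 WAF, 3.57 from 21 to 26 WAF and 0.13 from 26 to 30 WAF. Leaving out each library in turn gave 3.97 to 4.30 for LOC111412681, 3.85 to 3.94 for LOC111412273 and 3.49 to 3.53 for LOC111412272 from 21 to 26 WAF.

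Without a filter on low values 6 of the 18 other genes of the description were called higher from 26 to 30 WAF, against 3 of 9 with it. Over all genes 11585 of 51008 were called higher without the filter and 10984 of 26131 with it. The genes of the description that the filter leaves out never exceeded 0.44 FPKM. With a mean of at least 5 FPKM, which tests fewer genes, 6568 genes were called lower from 17 to 30 WAF against 10178. LOC111412275 changed by -0.019 from 26 to 30 WAF with median-of-ratios scaling. That scaling also moved the share of calls that were higher from 38.2 to 49.3% between 17 and 21 WAF and from 63.4 to 51.4% between 26 and 30 WAF. The letters A, B and C showed no sign of pairing the libraries. Deviations of same-letter libraries correlated at -0.0861 to 0.0742 over 18 pairs, and those of different letters at -0.148 to 0.15 over 36 pairs. A weak shared effect could be missed in this way. With the replicate block 8 of the 9 other genes of the description were still called higher and 1 lower from 21 to 26 WAF. The comparison of protein identities was not run. Depth is unknown and sets no stated limit.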
